A study of Mus musculus with 4 samples.

Results

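The p53 gene Trp53 and 9 genes that p53 is known to switch on, Cdkn1a, Plk2, Mdm2, Ccng1, Trp53inp1, Phlda3, Zmat3, Aen and Eda2r, were followed through fetal liver stem and progenitor cells with and without Bclaf1. These 10 genes were taken by name from the 32285 genes of each matrix, and all 10 were present in both. They were chosen with earlier results of these data known. The cells were LSK cells (negative for lineage markers, positive for Sca1 and c-Kit), the gate in which blood stem cells (HSCs) and their earliest multipotent descendants are found, sorted from mouse livers at E17.5 (days of gestation). The KO library came from Vav-Cre:Bclaf1f/f embryos, in which both Bclaf1 alleles are floxed and Cre is driven by Vav regulatory sequence, which is active in blood cells. The WT library came from Bclaf1f/f embryos, which carry the same floxed alleles without Cre. Each genotype was 1 pool of 10 embryos and 1 library, with messenger RNA and antibody tags read from the same cells (CITE-seq), so presence of Cre and loss of Bclaf1 cannot be told apart. No spread between replicates exists, so no test was made and every comparison is between these libraries. The 95% intervals in brackets cover counting error only. By its title, the study asks how BCLAF1, a protein of the nucleus with roles in transcription and RNA handling, restrains stress responses in HSCs.

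The p53 protein is held at a low level by constant degradation and is stabilised by DNA damage and other stresses, so that its activity is set mostly on the protein and not on its messenger RNA. Active p53 binds response elements in its target genes, which halt the cell cycle, start cell death, aid repair, or, in the case of Mdm2, feed back to remove p53. In blood stem cells p53 is known for restraining entry into the cell cycle and for removing damaged cells. Several targets, Cdkn1a and Plk2 among them, are also known to respond to growth factor and stress signals without p53.

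Cell calling left 2676 KO cells and 5345 WT cells, with 104358292 and 141419013 UMIs (molecular barcodes that count RNA molecules) in genes. Median gene UMIs per cell were 34187.5 in KO and 22734 in WT, so KO cells were read more deeply. Levels are UMIs summed over cells per 1000000 gene UMIs (CPM), and ratios are log2 of KO over WT. Bclaf1 itself had 75.8 CPM in KO and 217.8 CPM in WT, a ratio of -1.52 (-1.56 to -1.49). These 3' tags check nothing about a deletion outside the tagged part, which the labels do not place. Kit was read in 97.0% of KO cells and 95.2% of WT cells, and Ly6a, the Sca1 gene, in 21.1% and 21.8%, so the RNA of this sorting marker was seen in a minority of cells of either library. Markers of other liver cells were low, with 8 hepatocyte markers summing to 13.3 CPM in KO and 9.52 CPM in WT. The libraries shared 5 cell barcodes. A list of 21 immediate early genes (Fos, Jun, Egr1 and others that respond within minutes to signals) summed to 1719 CPM in KO against 926 CPM in WT, and its part in the results was not tested.

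Promoter sequences are shown for Cdkn1a, Plk2 and Ccng1, the 3 genes with a mean of at least 5 CPM that were at least 25% higher in KO over all cells, since most of what follows turns on these genes. They span 250 bases before to 50 after a start site, are from RefSeq on GRCm38.p6, and run 5′ to 3′ on the gene's strand. Cdkn1a lies at chr17:29090729-29091028 on the plus strand, Plk2 at chr13:110394794-110395093 on the plus strand and Ccng1 at chr11:40755237-40755536 on the minus strand. Capitals mark p53 decamers, the 10-base unit of the p53 response element, searched on both strands by its consensus with no mismatch allowed. In Plk2 they mark the cyclic AMP response element TGACGTCA, bound by CREB and ATF factors.
Cdkn1a: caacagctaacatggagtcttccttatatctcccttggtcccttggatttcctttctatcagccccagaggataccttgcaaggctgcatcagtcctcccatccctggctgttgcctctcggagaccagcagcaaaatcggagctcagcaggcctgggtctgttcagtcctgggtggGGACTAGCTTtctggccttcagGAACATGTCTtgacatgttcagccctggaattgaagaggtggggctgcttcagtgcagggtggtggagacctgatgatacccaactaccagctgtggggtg
Plk2: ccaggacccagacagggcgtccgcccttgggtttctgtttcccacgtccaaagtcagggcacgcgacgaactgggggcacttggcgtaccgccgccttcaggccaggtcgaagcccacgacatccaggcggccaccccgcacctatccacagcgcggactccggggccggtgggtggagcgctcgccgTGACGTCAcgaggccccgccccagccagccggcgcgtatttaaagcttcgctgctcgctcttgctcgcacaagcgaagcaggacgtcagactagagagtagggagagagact
Ccng1: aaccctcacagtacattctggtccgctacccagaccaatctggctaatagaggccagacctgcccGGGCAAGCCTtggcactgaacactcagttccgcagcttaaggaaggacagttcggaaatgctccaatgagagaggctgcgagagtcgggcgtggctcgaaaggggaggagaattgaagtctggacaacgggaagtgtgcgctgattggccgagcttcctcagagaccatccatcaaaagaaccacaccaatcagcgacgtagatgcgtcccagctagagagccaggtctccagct

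Among the 8 of the 10 genes with a promoter window, that is all but Trp53inp1 and Zmat3, Cdkn1a was the one whose window held a full p53 element without mismatch. This means 2 decamers of the consensus with 0 to 13 bases between them. The 2 decamers, GGACTAGCTT and GAACATGTCT, stood 12 bases apart from -73 to -42 of this start site. These are the bounds of the strict match. The 10 bases directly after GAACATGTCT, tgacatgttc, miss the consensus at their first base alone and were not marked. The matched element ended 2832 bases before the other annotated Cdkn1a start. Full elements occurred in 24 of 32851 promoter windows of the same length (0.0731%). Single decamers occurred in 8.36% of all windows and in 6 of the 10 windows of these 8 genes. These 6 belonged to Trp53, Cdkn1a, Mdm2, Ccng1 and Aen, the last with 2 overlapping windows that hold the same decamer. In Ccng1 the 10 bases directly before its decamer, agacctgccc, miss the consensus at a single base. Its window was therefore not counted as a full element. Plk2 held no decamer in its window. Its TGACGTCA, at -62 to -55, is found in 1.79% of all windows. The AP-1 motif TGANTCA (7.81% of all windows) and the CArG box of serum response factor (1.63%) were in none of the 10, and TATAAA (13.6%) was in those of Trp53 and Eda2r. A match is a string of letters and shows no binding, and many p53 elements lie in introns outside these windows.

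Over all cells, Plk2, Cdkn1a and Ccng1 were at least 25% higher in KO, and none of the genes was at least 20% lower. Plk2, a polo-like kinase, had 18.4 CPM in KO and 6.34 CPM in WT, with a ratio of 1.54 (1.42 to 1.65). Cdkn1a, which encodes the cyclin-dependent kinase inhibitor p21, had 15.7 CPM in KO and 6.58 CPM in WT. Only 4 of the 9229 genes with a mean of at least 5 CPM had a higher ratio than Plk2, and 20 had a higher ratio than Cdkn1a. Ccng1, which encodes cyclin G1, a partner of a phosphatase that acts on MDM2, had 27.6 CPM in KO and 21.5 CPM in WT. Its ratio was 0.36 (0.28 to 0.43). These were 3 of the 8 genes that met the minimum of 5 CPM, where 7.47% of all 9229 genes were at least 25% higher and 2.57% at least 20% lower. Since the genes were chosen with earlier results known, these ranks and counts describe them and test nothing about p53 targets. With the libraries scaled by the median ratio of genes the ratio of Ccng1 was 0.29, under the 25% limit, and 2 genes were counted higher, while 4 were with every cell thinned to the same UMIs. The shares of all genes were not computed under these settings. The median ratio of all 10 was 0.26, against 0.067 for the 9229 genes.

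**Figure D1:**
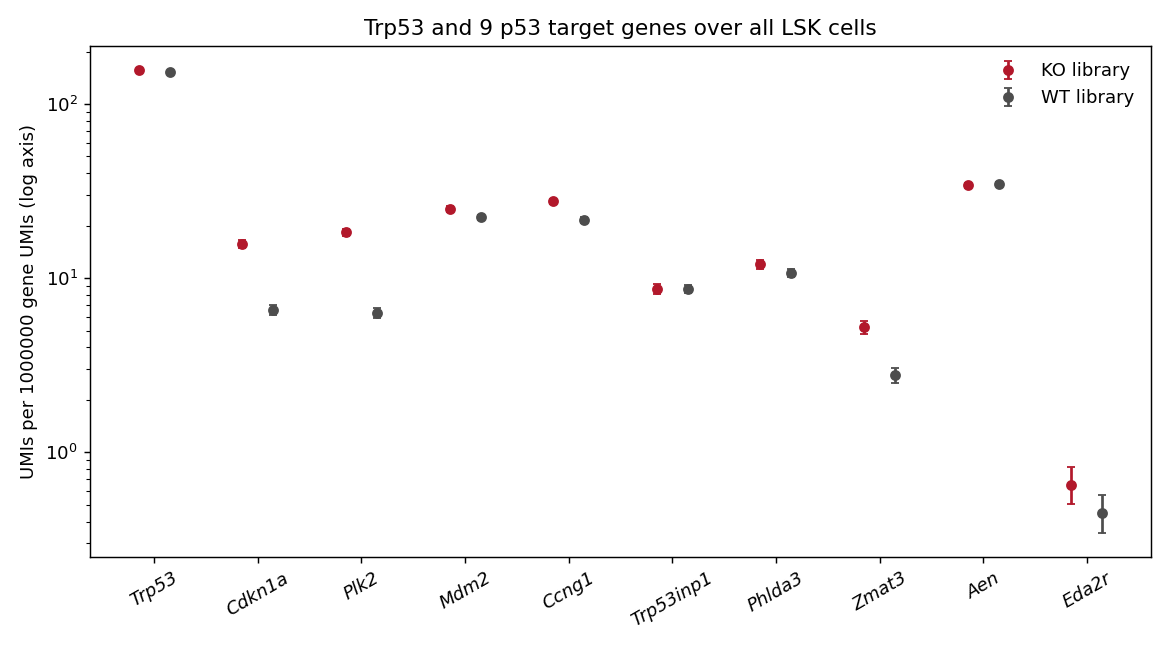
Level of each of the 10 genes over all cells, in UMIs per 1000000 gene UMIs on a log axis, for the KO library (red) and the WT library (grey); bars are exact 95% Poisson intervals, counting error only. Plk2, Cdkn1a and Zmat3 stand clearly apart between the libraries, Ccng1 by less, and Trp53, Aen and Trp53inp1 lie at nearly the same level in both.

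The regulator and its own feedback loop differed little. Trp53 had 156.3 CPM in KO and 152.8 CPM in WT, a ratio of 0.033 (0.0032 to 0.062), which turned to -0.033 by the median-ratio scaling. Mdm2, the ubiquitin ligase that marks p53 for degradation, had 24.9 CPM in KO and 22.3 CPM in WT, a ratio of 0.16 (0.082 to 0.23). Wrap53, the gene that lies head to head with Trp53 on chromosome 11, had 9.92 CPM in KO and 9.94 CPM in WT.

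The remaining targets were mixed. Zmat3, a zinc finger protein that binds RNA and acts in splicing, had 5.21 CPM in KO and 2.78 CPM in WT, a ratio of 0.91 (0.72 to 1.10). Its mean lay under 5 CPM, so it was not counted among the genes at least 25% higher. Phlda3, a repressor of Akt signalling, had 12.0 CPM in KO and 10.7 CPM in WT, a ratio of 0.17 (0.058 to 0.28). Aen, a nuclease of programmed cell death, had 34.1 CPM in KO and 34.6 CPM in WT, a ratio of -0.022 (-0.085 to 0.040). Trp53inp1, a stress protein that works in cell death and autophagy, had 8.64 CPM in KO and 8.66 CPM in WT. Eda2r, a receptor of the TNF receptor family, was close to the limit of detection, with 68 UMIs in KO and 63 UMIs in WT in total, a ratio of 0.55 (0.033 to 1.07).

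The higher levels were spread over more cells. With every cell thinned to 8000 UMIs, a Cdkn1a UMI was found in 11.2% of KO cells (10.0% to 12.5%) and 4.51% of WT cells (3.97% to 5.10%), and without thinning in 30.3% and 11.7%. For Plk2 the thinned shares were 14.2% of KO cells and 5.78% of WT cells, and the unthinned ones 31.2% and 12.6%. Trp53 was read in 68.4% of thinned KO cells and 68.0% of thinned WT cells. The 1% of cells richest in Cdkn1a held 16.1% of its UMIs in KO and 25.4% in WT, with at most 26 UMIs in a KO cell and 14 in a WT cell, and the ratio was 1.39 without them. For Plk2 the ratio was 1.62 without the richest 1%. No cell type here is known to lack these genes, so droplets with 100 to 300 UMIs serve as the measure of free RNA. In these, Cdkn1a had 16.1 CPM in KO and 4.88 CPM in WT, and Plk2 had 15.3 CPM and 5.88 CPM, close to the levels in cells, so these shares include an unknown part from free RNA. With the profile of droplets of 10 to 100 UMIs subtracted at 5% of the UMIs in cells, the ratio was 1.25 for Cdkn1a and 1.53 for Plk2. That profile held 10 Cdkn1a UMIs in KO and 12 in WT, and 4 and 3 Plk2 UMIs. Taking off a fixed 5% at such levels could move these ratios little, so the part from free RNA stayed unknown.

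Reads of Cdkn1a and of other targets in the same cell were compared next. Of the 300 thinned KO cells with a Cdkn1a UMI, 15.3% had a Plk2 UMI, against 14.1% of those without. In WT these shares were 7.88% of 241 cells and 5.68% of the rest. Phlda3 was read in 15.0% of Cdkn1a-positive and 10.4% of Cdkn1a-negative KO cells, and in 13.7% and 7.60% of the WT cells. Mdm2 was read in 19.3% and 19.4% of these KO cells and in 17.8% and 16.9% of these WT cells. At least 3 of the 9 targets were read in 8.97% of KO cells and 4.25% of WT cells, and none in 32.2% of KO cells and 41.6% of WT cells.

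Surface proteins then split the cells by CD150 and CD48, which are used to separate HSCs from progenitors. CD150+CD48-, the phenotype richest in HSCs, held 107 KO and 311 WT cells (4.00% and 5.82%). CD150-CD48- held 551 KO and 772 WT cells, CD150+CD48+ held 264 KO and 454 WT cells, and CD150-CD48+ held 1754 KO and 3808 WT cells. Slamf1, the CD150 gene, had 42.9 CPM in KO and 30.6 CPM in WT in the CD150+CD48- gate, against 2.84 CPM and 2.47 CPM in the CD150-CD48+ gate. Limits were set in each library, since KO cells carried more antibody tags (medians of 6178 in KO and 3776 in WT).

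Plk2 and Cdkn1a were higher in KO in all 4 gates, by amounts that depended in part on how the gates were drawn. In CD150-CD48+ cells Cdkn1a had 18.7 CPM in KO and 6.69 CPM in WT, a ratio of 1.48 (1.35 to 1.62). In CD150+CD48+ cells it had 9.48 CPM in KO and 6.87 CPM in WT, a ratio of 0.46 (0.080 to 0.85). In CD150-CD48- cells it had 9.41 CPM in KO and 5.18 CPM in WT, and in CD150+CD48- cells 13.6 CPM and 7.94 CPM, from 34 and 42 UMIs. The interval in CD150-CD48+ lay above those in CD150-CD48- (0.48 to 1.26) and CD150+CD48+ but overlapped that in CD150+CD48- (0.082 to 1.47). The ratio in CD150+CD48+ was 0.95 with every cell thinned to the same UMIs. Gates were also drawn at 25% limits, with CD150+ as the top 25% by CD150 tags and CD48- as the bottom 25% by CD48 tags. All other cells were CD150- or CD48+, so every cell stayed in a gate. With these gates the ratio was 0.95 in CD150+CD48+, 0.86 in CD150-CD48-, 0.44 (-0.071 to 0.95) in CD150+CD48- and 1.50 in CD150-CD48+ cells. The order of the first 3 of these gates thus differed. With gates on each tag's share of antibody UMIs it was 1.76 (-0.24 to 3.32) in CD150-CD48-, from 4 UMIs in 15 KO cells and 22 UMIs in 215 WT cells, and 1.49 (1.36 to 1.63) in CD150-CD48+. Within KO the level was highest in CD150-CD48+, whereas in WT the 4 gates lay between 5.18 and 7.94 CPM.

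The level of Plk2 was highest in CD150+CD48- and lowest in CD150+CD48+ cells in both libraries. In CD150+CD48- cells it had 28.4 CPM in KO and 11.9 CPM in WT, a ratio of 1.26 (0.75 to 1.77). In CD150-CD48+ cells it had 21.5 CPM in KO and 6.33 CPM in WT, a ratio of 1.77 (1.63 to 1.90). The ratio was 1.04 in CD150-CD48- and 0.74 (0.28 to 1.21) in CD150+CD48+ cells, where the level was 7.39 CPM in KO and 4.41 CPM in WT. As with Cdkn1a, the intervals of CD150-CD48+ and CD150+CD48+ did not overlap. On tag shares the ratio was 1.23 (0.92 to 1.55) in CD150+CD48+ and 1.79 (1.65 to 1.92) in CD150-CD48+ cells, below the 2.72 (1.58 to 3.75) of CD150-CD48- cells, which rested on 11 UMIs in KO and 31 UMIs in WT.

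With the gates as drawn here Ccng1 differed by nearly the same amount in each. Its ratio was 0.36 in CD150+CD48-, 0.32 in CD150-CD48-, 0.33 in CD150+CD48+ and 0.33 in CD150-CD48+ cells. In CD150+CD48- its interval (-0.031 to 0.74) spanned 0, and with every cell thinned to the same UMIs this value turned to -0.046. In CD150-CD48- it was 0.52 thinned and -0.31 (-1.78 to 0.85) on tag shares, there from 6 UMIs in KO and 138 UMIs in WT. Zmat3 had ratios of 0.54, 0.49, 1.09 and 1.01 in the same order of gates, with the interval of CD150+CD48- spanning 0. With every cell thinned these ratios were -0.046, 1.175, 0.14 and 1.32, so the order of the gates changed. Trp53 stayed between -0.11 and 0.067 and Mdm2 between 0.076 and 0.28.

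The HSC-rich gate had the highest level of 6 of the targets other than Plk2 in both libraries, namely Mdm2, Ccng1, Trp53inp1, Phlda3, Zmat3 and Eda2r. Mdm2 had 36.1 CPM in KO and 29.7 CPM in WT there, and 22.3 CPM and 19.7 CPM in CD150+CD48+ cells, its lowest gate. Trp53inp1 varied more among the gates than any of these genes but Eda2r, from 16.0 CPM in KO and 15.3 CPM in WT in CD150+CD48- down to 3.51 CPM and 4.60 CPM in CD150+CD48+ cells. Aen ran the other way, with 25.2 CPM in KO and 25.3 CPM in WT in CD150+CD48- cells and 38.3 CPM and 40.8 CPM in CD150+CD48+ cells. Eda2r had 10 UMIs in KO and 6 UMIs in WT in CD150+CD48- cells.

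Against the background of all genes these counts stood as follows. In CD150+CD48- 5 of 9 genes that met the minimum were at least 25% higher, beside 20.7% of all genes, and none was at least 20% lower, beside 8.32%. That count was 3 by median-of-ratios scaling and 3 with gates at the 25% limits of tags, under which Phlda3 had a ratio of -0.024. The shares of all genes were not computed under these settings. In CD150-CD48- the count was 3 of 9, beside 10.4%, with none lower beside 13.5%. In CD150+CD48+ it was 3 of 7, beside 11.4%, with none lower beside 8.81%. In CD150-CD48+ it was 3 of 8, beside 7.74%, with none lower beside 1.32%. The smallest gate, CD150+CD48-, had the highest share of all genes at least 25% higher.

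**Figure D2:**
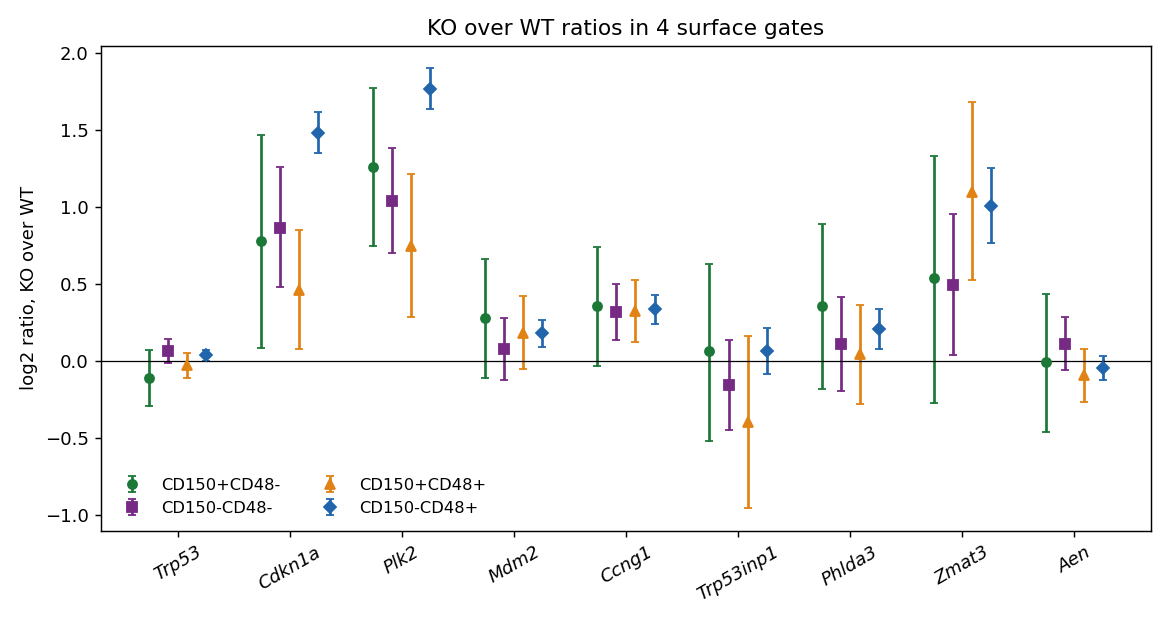
KO over WT log2 ratio of 9 genes (Eda2r is left out for its few UMIs) in 4 surface gates, with exact 95% intervals that cover counting error only; the line marks a ratio of 0. With these gates Cdkn1a and Plk2 are highest in CD150-CD48+ cells at 1.48 and 1.77, an order that changes when gates are drawn on tag shares, Ccng1 lies near 0.33 in each gate, and Trp53 stays near 0.

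CD201, the endothelial protein C receptor, marks the stem cells within the CD150+CD48- gate, which was split at the median of its CD201 tags. The CD201 high side held 53 KO and 153 WT cells, and the low side 54 KO and 158 WT cells. Plk2 had 37.7 CPM in KO and 16.5 CPM in WT on the high side, a ratio of 1.19 (0.54 to 1.85), and 20.7 CPM and 7.85 CPM on the low side, a ratio of 1.40 (0.54 to 2.27). In both libraries its level was higher on the CD201 high side. Cdkn1a had 20 UMIs in KO and 28 UMIs in WT on the high side and 14 UMIs in each on the low side, with ratios of 0.64 (-0.27 to 1.52) and 1.05 (-0.13 to 2.23). On the high side 5 of 9 genes were at least 25% higher and 1 at least 20% lower, where 25.6% and 14% of all genes were. On the low side 4 of 9 were higher and none lower, where 24.9% and 13.6% of all genes were. The gene that was lower was Zmat3, with 5 UMIs in KO and 19 UMIs in WT on the high side, a ratio of -0.80 (-2.58 to 0.67). That value became 1.39 when gates were drawn on each tag's share of antibody UMIs.

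Cell cycle position was read from summed transcripts. G2/M-high cells were the top 25% of both libraries by G2/M genes, S-high cells were those above the median of the rest by S phase genes, and low-cycle cells were those left. KO had 30.2% of its cells in the G2/M-high range, 37.5% in the S-high range and 32.4% in the low-cycle range, against 22.4%, 37.5% and 40.1% in WT. These are ranges of a score and not cell types.

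Cdkn1a and Plk2 had their largest ratios in low-cycle cells, although some intervals overlapped between ranges. Cdkn1a had 21.2 CPM in KO and 6.80 CPM in WT there, a ratio of 1.64 (1.42 to 1.87). In the S-high range it had 16.3 CPM in KO and 7.53 CPM in WT, a ratio of 1.11 (0.94 to 1.29), and in the G2/M-high range 12.5 CPM and 5.10 CPM, a ratio of 1.29 (1.06 to 1.52). In KO low-cycle cells had the highest Cdkn1a level, whereas in WT S-high cells did. Plk2 had 38.4 CPM in KO and 10.8 CPM in WT in low-cycle cells, a ratio of 1.83 (1.65 to 2.00). Its ratio was 1.66 (1.45 to 1.88) in S-high and 1.35 (1.12 to 1.57) in G2/M-high cells. In both libraries its level was over 2 times as high in low-cycle cells as in either other range.

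The low-cycle range was also the only one of the 3 in which the Trp53inp1 interval left 0. It had 20.9 CPM in KO and 16.6 CPM in WT there, a ratio of 0.33 (0.15 to 0.51), against 4.88 CPM and 4.78 CPM in S-high and 6.49 CPM and 7.14 CPM in G2/M-high cells. With KO cells weighted to the WT shares of gates and cycle ranges, its ratio over all cells was 0.15. Phlda3 had ratios of 0.38 (0.18 to 0.59) in low-cycle, 0.055 (-0.11 to 0.22) in S-high and 0.37 (0.15 to 0.58) in G2/M-high cells. Trp53 was lowest in low-cycle cells, with 130.9 CPM in KO and 129.5 CPM in WT, and Aen was highest in S-high cells, with 40.6 CPM in KO and 42.9 CPM in WT. Of the genes that met the minimum, 5 of 9 were at least 25% higher in low-cycle cells, beside 10% of all genes. In S-high cells 3 of 7 were, beside 8.23%, and in G2/M-high cells 4 of 8 were, beside 7.83%. None was at least 20% lower, beside 1.3%, 3.16% and 3.72% of all genes.

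**Figure D3:**
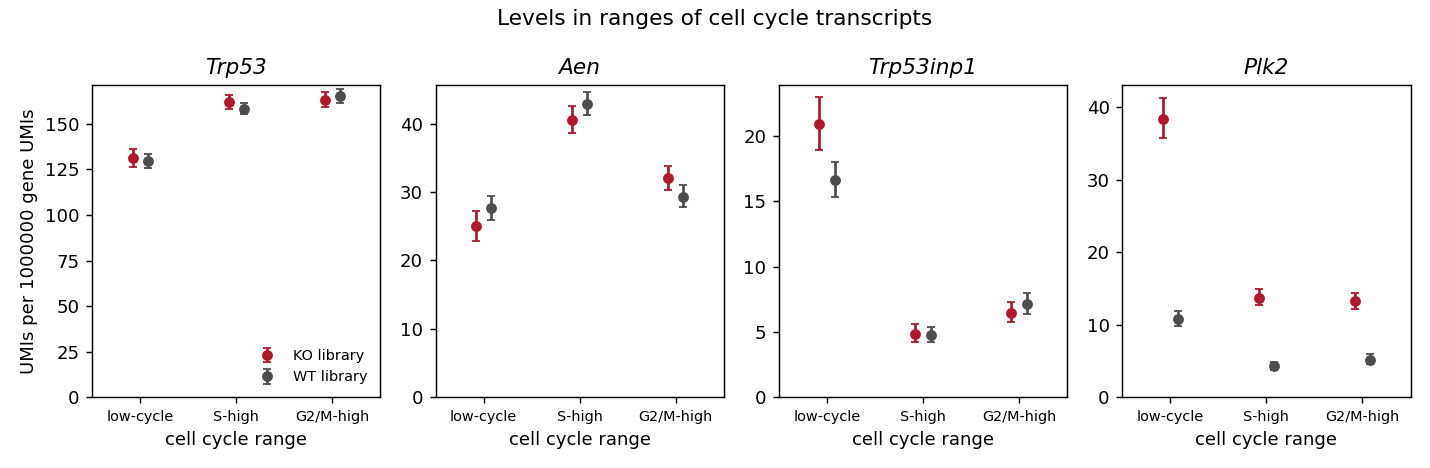
Level of Trp53, Aen, Trp53inp1 and Plk2 in UMIs per 1000000 gene UMIs in 3 cell cycle ranges, for the KO library (red) and the WT library (grey), with exact 95% Poisson intervals, counting error only. Trp53 is lowest and Plk2 and Trp53inp1 are highest in low-cycle cells of both libraries, and Plk2 is the one of these 4 whose intervals stand apart between the libraries in all 3 ranges.

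Within the gates, ratios also varied with cycle position, in CD150-CD48- cells among others. There Cdkn1a had 20.3 CPM in KO and 5.70 CPM in WT in low-cycle cells, a ratio of 1.83 (1.30 to 2.39), but 3.81 CPM and 3.59 CPM in S-high cells, a ratio of 0.086 (-0.78 to 0.99). Plk2 had 34.4 CPM in KO and 10.0 CPM in WT in these low-cycle cells, a ratio of 1.78 (1.38 to 2.20). Its ratio was 0.82 (-0.097 to 1.82) in S-high and 0.20 (-0.70 to 1.13) in G2/M-high cells of the gate. Zmat3 had 10.7 CPM in KO and 3.34 CPM in WT in the low-cycle cells, a ratio of 1.69 (0.97 to 2.44). In S-high cells of the gate it had 4.43 CPM and 6.43 CPM, a ratio of -0.54 (-1.25 to 0.18), and in G2/M-high cells a ratio of 0.36 (-0.83 to 1.64). In CD150-CD48+ cells, by contrast, Cdkn1a had ratios of 1.75 in low-cycle, 1.41 in S-high and 1.59 in G2/M-high cells. In CD150+CD48- low-cycle cells Cdkn1a had 19.8 CPM in KO and 8.75 CPM in WT, a ratio of 1.18 (0.34 to 2.01), from 26 and 27 UMIs. Plk2 in this gate had a ratio of 1.135 (0.50 to 1.77) in low-cycle cells. In S-high cells it was 2.60 (1.29 to 4.10), from 19 UMIs in KO and 7 UMIs in WT.

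Progenitor directions were followed through the top 10% of cells of both libraries by each of 6 marker lists. These ranges overlap, since 12.6% of KO cells and 9.69% of WT cells were in more than 1. Cdkn1a was highest in cells with mast cell or basophil markers, such as Cpa3 and Gzmb, with 35.0 CPM in KO and 13.7 CPM in WT, a ratio of 1.35 (1.09 to 1.62). In the granulocyte-monocyte range it had 33.2 CPM in KO and 11.2 CPM in WT, a ratio of 1.57 (1.32 to 1.82). Of the cells in that range 43.3% in KO and 25.8% in WT were also in the mast cell or basophil range, and in the others Cdkn1a had 29.3 CPM in KO and 11.2 CPM in WT. In the erythroid range (Klf1, Gata1, Car1) it was lowest, with 3.01 CPM in KO and 3.20 CPM in WT, a ratio of -0.087 (-0.64 to 0.47). The interval of the erythroid range lay below those of the other 5 ranges. Few cells carried these UMIs, with 14 of the 49 WT UMIs in 1 cell, and the richest 1% of cells held 23.5% of them in KO and 44.9% in WT. The erythroid ratio was 0.35 without those cells and 0.81 with every cell thinned to 8000 UMIs, when a Cdkn1a UMI was found in 3.57% of KO cells (1.97% to 5.92%) and 1.70% of WT cells (0.69% to 3.48%). In the other 5 ranges the ratio was 1.25 to 1.93 without the richest cells and 1.31 to 2.16 thinned. Erythroid markers summed to 649 CPM in KO and 460 CPM in WT over all cells, and 14.6% of KO cells and 7.69% of WT cells fell in the erythroid range.

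Plk2 had another distribution. It was highest in the lymphoid range (Il7r, Flt3, Dntt), with 59.4 CPM in KO and 13.9 CPM in WT, a ratio of 2.10 (1.83 to 2.37). In the HSC range (Mecom, Procr, Hlf) it had 35.0 CPM in KO and 11.7 CPM in WT, a ratio of 1.58 (1.23 to 1.95). In the erythroid range it had 6.51 CPM in KO and 3.85 CPM in WT, a ratio of 0.76 (0.31 to 1.22), or 0.34 with cells thinned. The lymphoid interval lay above those of the erythroid, granulocyte-monocyte, megakaryocyte and mast cell or basophil ranges, in which the ratio was 0.76 to 1.11.

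Trp53inp1 and Phlda3 had opposite signs among the ranges. Over all cells their ratios were -0.0020 and 0.17, or 0.019 and 0.45 with cells thinned. Trp53inp1 was higher in KO in the HSC range, with 31.6 CPM against 23.4 CPM in WT, a ratio of 0.43 (0.13 to 0.74). It was lower in KO in the erythroid range, with 3.36 CPM against 5.35 CPM in WT, a ratio of -0.67 (-1.14 to -0.20), and in the megakaryocyte range, with 6.80 CPM against 10.4 CPM. Phlda3 had 14.7 CPM in KO and 9.44 CPM in WT in the lymphoid range, a ratio of 0.64 (0.26 to 1.03), and 9.38 CPM and 13.3 CPM in the erythroid range, a ratio of -0.50 (-0.79 to -0.22) that was -0.14 with cells thinned. Ccng1 was highest in ratio in the HSC range, at 0.57 (0.30 to 0.85), and had 0.093 (-0.070 to 0.26) in the erythroid range, but thinned it had 0.59 and 0.78. Eda2r had 15 UMIs in KO and 5 UMIs in WT in the HSC range. Trp53 had 177.9 CPM in KO and 165.7 CPM in WT in the erythroid range, the highest of the 6 ranges in both libraries.

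Of the genes that met the minimum in each range, 6 of 9 were at least 25% higher in the HSC range, beside 14.4% of all genes, and none at least 20% lower, beside 4.09%. In the lymphoid range 3 of 8 were higher, beside 12%, and none lower, beside 3.8%. In the granulocyte-monocyte range 3 of 7 were higher, beside 13.6%, and none lower, beside 2.74%. The mast cell or basophil range had 2 of 8 higher, beside 11%, and 1 lower, beside 6.19%. The megakaryocyte range had 2 of 8 higher, beside 15.3%, and 1 lower, beside 6.39%. The erythroid range had 1 of 6 higher, beside 8.95%, and 1 lower, beside 5.89%. The gene counted higher in the erythroid range was Plk2 and the one counted lower was Phlda3. The immediate early genes summed to 794.9 CPM in KO and 502.9 CPM in WT in the erythroid range, and to 2477 CPM and 1305 CPM in the HSC range.

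**Figure D4:**
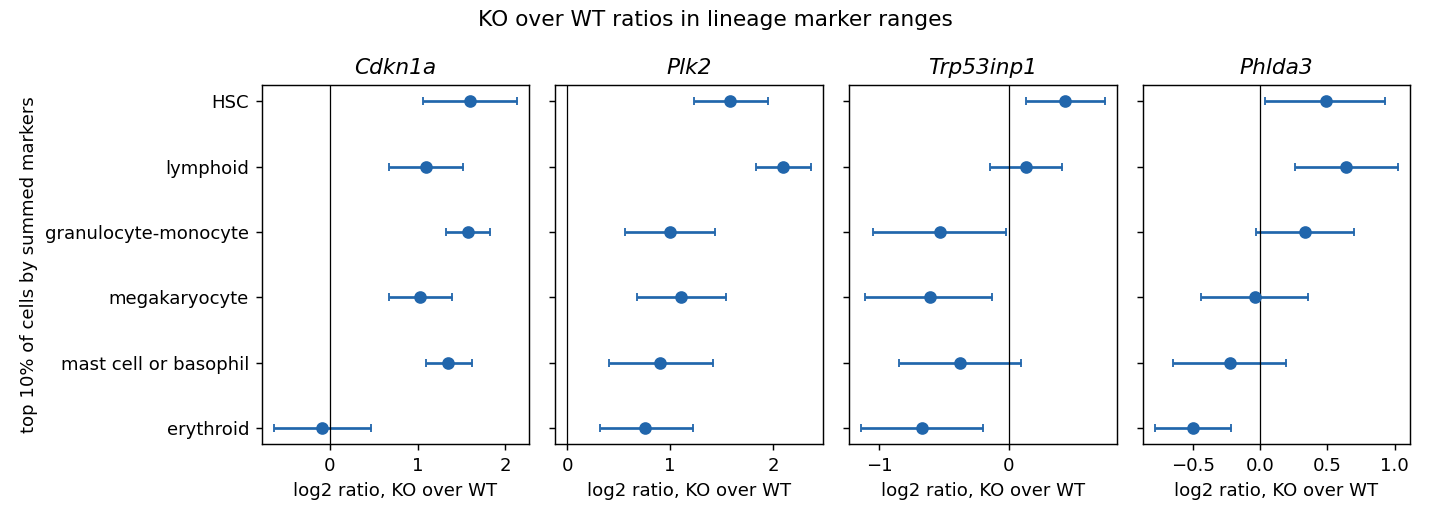
KO over WT log2 ratio of Cdkn1a, Plk2, Trp53inp1 and Phlda3 in 6 ranges of cells (rows; top 10% by summed markers of each list, ranges overlap), with exact 95% intervals, counting error only; the vertical line marks 0. Cdkn1a is near 0 in the erythroid range, where its ratio was 0.81 with cells thinned to the same UMIs, Plk2 is above 0 in all 6, and Trp53inp1 and Phlda3 lie on both sides of 0.

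Several genes with a pattern like Cdkn1a and Plk2 were immediate early genes, for Cdkn1a more closely within KO than within WT. By the rule of likeness used here (Pearson r of log2(CPM + 10) over 22 points of gate by cycle range, 10 from KO and 12 from WT, which share library and depth), the 5 genes most like Cdkn1a among 5087 were Ier2 (r of 0.86), Zfp36, Fos, Egln3 and Jun (0.83). Within KO the r of these 5 was 0.90 to 0.95. Within WT it was 0.52 for Ier2, 0.39 for Zfp36, 0.25 for Fos, 0.26 for Jun and 0.75 for Egln3. The 5 most like Plk2 were Ier3 (0.95), Zfp36, Ddx5, Klf6 and Srsf5 (0.89), with 0.98 for Ier3 within KO and 0.89 within WT. Those most like Trp53 were Prpf31 (0.90), Rfc5, Mthfd1l, Dnph1 and Tdp2 (0.87), a splicing factor, a replication factor subunit and enzymes of folate, nucleotide and DNA end metabolism.

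To set this beside the ratios, the cells of both libraries were split into 3 equal ranges by their summed immediate early UMIs per gene UMI. The high range held 56.4% of KO cells and 21.8% of WT cells, and the low range 19.0% of KO cells and 40.5% of WT cells. In the low range, where the summed immediate early level was 428 CPM in KO and 437 CPM in WT, Cdkn1a had 5.52 CPM in KO and 5.36 CPM in WT, a ratio of 0.044 (-0.24 to 0.32). Plk2 had 2.74 CPM in KO and 2.55 CPM in WT in that range, a ratio of 0.10 (-0.30 to 0.50). In the middle range, with 1080.0 CPM of immediate early genes in KO and 1046 CPM in WT, Cdkn1a had 12.5 CPM in KO and 7.52 CPM in WT, a ratio of 0.73 (0.52 to 0.94). Plk2 had 14.8 CPM in KO and 7.77 CPM in WT there, a ratio of 0.93 (0.72 to 1.13). In the high range, where the immediate early level itself was 2817 CPM in KO and 2075 CPM in WT, the ratios were 1.54 (1.31 to 1.77) for Cdkn1a and 1.06 (0.88 to 1.23) for Plk2. From low to high, the Cdkn1a level was 5.52, 12.5 and 23.4 CPM in KO and 5.36, 7.52 and 8.06 CPM in WT.

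The other targets were mixed in these ranges. Zmat3 had ratios of 0.79 (0.44 to 1.14), 0.87 (0.53 to 1.21) and 0.73 (0.37 to 1.11) from the low to the high range, so its difference was as large in cells with few immediate early transcripts. Ccng1 had 0.50 (0.38 to 0.63), 0.38 and 0.20 (0.056 to 0.35), and its largest value was in the low range. Trp53inp1 was lower in KO in the low and middle ranges, at -0.96 (-1.33 to -0.61) and -0.73 (-0.98 to -0.47), although its ratio over all cells was -0.0020. In the high range it had -0.11 (-0.31 to 0.081), an interval that spanned 0. With cells thinned it had -0.70 (-1.5 to 0.015) in the low, -0.83 (-1.4 to -0.31) in the middle and -0.15 (-0.46 to 0.16) in the high range. Mdm2 had -0.040, 0.033 and 0.14, with the first 2 intervals spanning 0, and Phlda3 had 0.066, 0.033 and 0.35. Of the genes that met the minimum, 1 of 6 in the low range, 3 of 8 in the middle range and 3 of 8 in the high range were at least 25% higher, beside 14.1%, 11.6% and 8.6% of all genes. Only in the middle range was 1 at least 20% lower, Trp53inp1, and these shares of all genes were 14.3%, 9.22% and 5.4% from low to high.

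**Figure D5:**
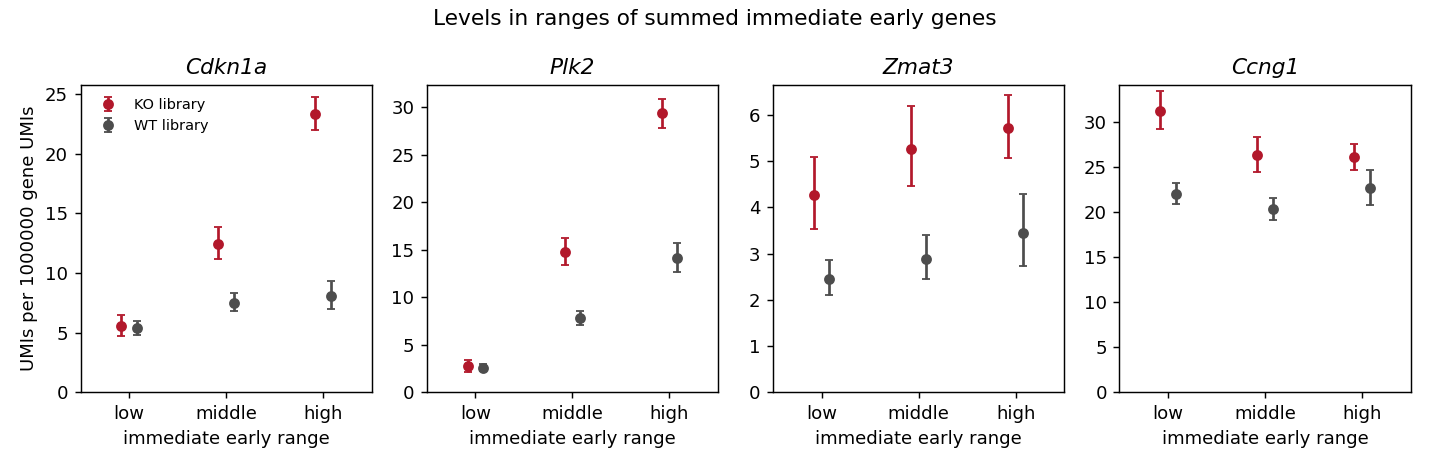
Level of Cdkn1a, Plk2, Zmat3 and Ccng1 in UMIs per 1000000 gene UMIs in 3 ranges of cells by summed immediate early genes, for the KO library (red) and the WT library (grey), with exact 95% Poisson intervals, counting error only. Cdkn1a and Plk2 lie close between the libraries in the low range and part in the high range, where Cdkn1a is 23.4 CPM in KO and 8.06 CPM in WT, while Zmat3 and Ccng1 are higher in KO in all 3.

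The makeup of these ranges differs between the libraries, so the split was repeated inside the CD150-CD48+ gate and at equal depth. In the low range of that gate, with 239 KO and 1534 WT cells, Cdkn1a had 8.02 CPM in KO and 5.74 CPM in WT, a ratio of 0.48 (0.14 to 0.82). Plk2 had 4.13 CPM in KO and 2.89 CPM in WT there, a ratio of 0.51 (0.025 to 0.98). In the high range of the gate the ratios were 1.78 (1.50 to 2.06) for Cdkn1a and 1.11 (0.90 to 1.31) for Plk2. Zmat3 again had similar values from low to high, at 0.97, 0.93 and 0.77. With all cells of the low range thinned to 8000 UMIs, Cdkn1a had a ratio of 0.38 (-0.23 to 0.96), Plk2 0.48 (-0.32 to 1.23) and Zmat3 1.55 (0.70 to 2.38), from 33, 20 and 22 UMIs in KO and 108, 61 and 32 UMIs in WT. Thinned Zmat3 had 0.61 (-0.12 to 1.32) in the middle and 0.64 (0.079 to 1.23) in the high range. From low to high, thinned Ccng1 had 0.78 (0.48 to 1.07), 0.25 (-0.041 to 0.53) and 0.047 (-0.20 to 0.29), so its interval left 0 in the low range alone.

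Depth itself was compared through 4 ranges of gene UMIs per cell with the same limits in both libraries. From the shallowest to the deepest range Cdkn1a had ratios of 2.06, 1.16, 1.44 and 1.28, Plk2 had 1.58, 2.39, 2.41 and 1.75, and Zmat3 had 0.86, 1.41, 1.54 and 0.78. All 12 of these intervals lay above 0. Aen and Trp53 lay below 0 in the middle ranges, Aen at -0.067 (-0.36 to 0.21), -0.45 (-0.65 to -0.26), -0.17 (-0.31 to -0.037) and -0.11 (-0.20 to -0.022) and Trp53 at 0.043, -0.15 (-0.23 to -0.059), -0.12 (-0.18 to -0.057) and -0.036. Of the 10 intervals in each range 5, 6, 7 and 6 lay above 0, and 0, 2, 2 and 1 below 0. The share of all genes with such intervals was not computed, so these counts have no background beside them. The median ratio of all genes that met the minimum was 0.071, 0.14, 0.11 and 0.070 in these ranges. Trp53inp1 had 0.13, 0.91 (0.68 to 1.15), 1.12 (0.84 to 1.39) and 0.22 (-0.056 to 0.49). Its ratio over all cells, near 0, thus stood beside values above 0 in 2 of these depth ranges and below 0 in the low and middle immediate early ranges. With KO cells weighted to the WT shares of gates and cycle ranges, the ratio was 1.39 for Cdkn1a and 1.72 for Plk2.

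Beyond the 10 genes, 44 other p53 targets were set beside them. Of the 31 that met the minimum, 4 were at least 25% higher and none at least 20% lower, where 7.47% and 2.57% of all genes were, and their median ratio was 0.071 against 0.067 for all genes. The 4 were Btg2 (0.71), an antiproliferative gene that is also an early response gene, Gadd45a (0.78), a stress sensor of growth arrest, Gtse1 (0.36), a G2 phase protein that restrains p53, and Apaf1 (0.42), the core of the apoptosome. Btg2 had 116 CPM in KO and 71.1 CPM in WT. By role, 3 of 7 arrest and cycle genes that met the minimum were higher, with a median of 0.30, and 1 of 6 cell death genes was, with a median of 0.11. None of 7 repair genes and none of 11 metabolism and stress genes was, with medians of 0.020 and -0.0025. KO also had more G2/M-high cells, 30.2% against 22.4% in WT, and the part of this in Gtse1 and the other values was not tested. Bax, a direct effector of cell death, had 121.6 CPM in KO and 122.5 CPM in WT, a ratio of -0.011. Pmaip1, which encodes the death inducer NOXA, had 4.98 CPM in KO and 2.05 CPM in WT, a ratio of 1.28 (1.07 to 1.49), and lay under the minimum. Among the abundant members of the list, Ptp4a3, a phosphatase gene, had -0.26, Sesn1, a sestrin of the antioxidant and mTORC1 pathways, -0.13, and Gpx1, glutathione peroxidase, 0.14. Ckap2 had 0.14, Triap1 -0.080 and Rps27l 0.078. Bax, Pmaip1, Gadd45a, Gtse1 and Apaf1 were chosen after their values were seen.

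Genes that act on p53 differed little between the libraries. Of 25 such regulators 22 met the minimum, and none was at least 25% higher or 20% lower, with a median of 0.085. Those farthest from 0 by their intervals were Hipk2, a kinase of p53, at 0.26 (0.18 to 0.33), the ubiquitin ligase gene Cop1 at 0.25 (0.19 to 0.30), the deacetylase gene Sirt1 at 0.23 (0.16 to 0.31) and Rpl11, a ribosomal protein that binds MDM2, at -0.16 (-0.17 to -0.16). Cdkn2a, which encodes the MDM2 inhibitor ARF, and Trp73 had 0 UMIs in either library. That allows at most 3 UMIs of 104358292 in KO and of 141419013 in WT for each.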

How the data were processed

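The deposited values were unnormalised UMI counts for each barcode, of genes and of antibody tags, written by Cell Ranger per the file headers. The submitters' processing notes name Cell Ranger 4.0.6 and the build mm10, and also name Seurat and DESeq without a version or a role. The genes and lists were chosen with earlier results of these data known. A barcode was taken as a cell if its gene UMIs reached 1000 and 10% of the 99th percentile among the 6000 largest barcodes, if it had 500 genes or more, and if no more than 10% of its UMIs were mitochondrial, which put the lowest UMI total at 9992 in KO and 8178 in WT. No doublet caller was run. Levels are sums over the cells of a library divided by all their gene UMIs. Ratios carry exact conditional binomial intervals, levels exact Poisson intervals and shares Clopper-Pearson intervals at 95%. Genes with a mean of at least 5 CPM were counted as higher (at least 25%) or lower (at least 20%). With 1 library per genotype no test was made. The ratio step was run on simulated Poisson counts at the real totals. These hold no variation between embryos, cells or libraries, so the run checks the calculation alone.

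The CD150 limit lay at the lowest point of each library's tag density between its 2 highest peaks. CD48 tags had a single peak in both libraries, so Otsu's limit was used, and the CD48 gates divide a continuous range. Marker, immediate early and depth ranges used limits common to both libraries. The mast cell or basophil range and the immediate early and depth ranges were chosen after seeing the data. Named genes were the 10, up to 4 genes of each other list with the interval bound farthest from 0 at 20 CPM or more, and the 5 with the highest likeness. Alternatives changed the cell filters, scaling, depth, free RNA, gates, minimum level, richest cells and make-up. Python 3.11.15, numpy 2.4.6, scipy 1.17.1, pandas 2.3.3 and matplotlib 3.10.9 were used.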

Additional observations from a re-analysis of the deposited data

Results flagged for a closer look

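Trp53inp1 and Phlda3 had ratios of opposite sign in different ranges of cells, with intervals that did not reach 0. The difference between ranges was not tested, and the intervals cover counting error only. For Trp53inp1 the ratio was 0.33 in low-cycle cells and 0.43 in the HSC range. It was -0.67 in the erythroid, -0.61 in the megakaryocyte and -0.53 in the granulocyte-monocyte range. For Phlda3 the ratio was 0.21 in CD150-CD48+, 0.37 in G2/M-high and 0.38 in low-cycle cells, 0.49 in the HSC and 0.64 in the lymphoid range, and -0.50 in the erythroid range.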

How the results depend on the processing

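No paired analysis was possible because each genotype was 1 library. Of 991 values of single genes under other settings, 919 moved by no more than the counting interval, 65 moved further, among them Trp53 over all cells (-0.033 by median-of-ratios scaling), and 7 that had been at least 25% higher or 20% lower changed sign. Phlda3 over all cells, at 0.45 thinned, was also among the 65. Thinning every cell turned Ccng1 (-0.046) and Zmat3 (-0.046) in CD150+CD48- cells and Zmat3 in the HSC range (-0.57). Gates drawn at the 25% limits of tags turned Phlda3 in CD150+CD48- (-0.024), CD201 high (-0.025) and CD201 low cells (-0.038). Gates on tag shares turned Zmat3 in CD201 high cells (1.39). The cause was not tested.

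Over all cells the median was 0.40 thinned, and the count of higher genes was 5 with no minimum and 1 at 20 CPM. In CD150+CD48- 3 were higher by median-of-ratios scaling and 3 by 25% gates, and 1 was lower thinned and 1 on tag shares. In CD150-CD48- the median was 0.53 on tag shares, with 1 lower. In CD150+CD48+ 1 was lower thinned. In CD201 high 3 were higher by 25% gates, and 0 were lower there and 0 on tag shares. In CD201 low 2 were lower thinned, 1 by 25% gates and 1 on tag shares. No share of all genes was computed under the other settings, so the counts given here have no background beside them. In the main setting 24.9% of all genes were higher and 13.6% lower in CD201 low. The S-high median was 0.44 thinned and 0.14 without the richest 1% of cells, and the erythroid median 0.30 thinned. Of the wider targets 1 was higher at 20 CPM and 1 lower by median-of-ratios scaling. The regulator median was 0.019 by that scaling, and 1 regulator was higher thinned. Without thinning the median share of cells with a UMI was 31.6% in KO and 19.2% in WT.

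Median-of-ratios scaling shifted all ratios by 0.066. Over 8 alternatives the ratio over all cells was 1.19 to 1.42 for Cdkn1a, 1.47 to 1.72 for Plk2 and 0.29 to 0.38 for Ccng1. Depth limits Eda2r, and Zmat3 in small gates.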
